A study of Mus musculus with 4 samples.

Results

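Mest, also known as Peg1, is an imprinted gene of mouse chromosome 6, and its methylation was followed over the gene and 10 kb on either side. On the mm10 (GRCm38) sequence the gene (ENSMUSG00000051855.15) occupies chr6:30723547-30748465 on the forward strand, so that the region examined was chr6:30713547-30758465, a length of 44.9 kb. Its members were all CpG sites that the 4 deposited tables list there. R1 ESCs listed 102 of their 2311939 sites there and Tet/Tet ESCs 123 of 2936767, while R1 neurons listed 220 of 5298360 and Tet/Tet neurons 213 of 3979487. The sequence of the region holds 582 CpGs, and 83 of them were listed in all 4 libraries, of 1545651 such sites in the series. Levels are means over those sites unless stated otherwise. Mest itself was chosen by measured values of these same tables, namely its higher level in the ESCs of Tet/Tet than of R1, so the values of that contrast describe the gene and support nothing. The sites were then taken by position alone.

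Reduced representation bisulfite sequencing (RRBS) reads methylation in CpG-rich DNA released by MspI, an enzyme that cuts at CCGG. R1 is a wild-type mouse embryonic stem cell (ESC) line, grown in serum medium with LIF. Tet/Tet is a single line derived from R1 that carries tet-off cassettes knocked in at Dnmt1, the maintenance DNA methyltransferase, was made to overexpress DNMT1 and was grown with 1 ug/ml puromycin and 150 ug/ml neomycin. Neurons came from each line by 2 days as embryoid bodies without LIF and, by the labels, 10 to 15 days in a neural medium. There was 1 library per condition, so there was no spread between cultures, and no test could be made. DNMT1 protein, RNA and neuronal markers were not measured in these tables, so neither the overexpression nor the cell type was checked here. The ESC and neuron libraries belong to different sequencing projects, and the effects of cell type and of project cannot be told apart. The R1 and Tet/Tet libraries of a cell type share a project.

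Imprinted genes are expressed from 1 parental copy. At Mest the promoter CpG island is methylated on the maternal copy in the oocyte and the paternal copy is transcribed, so that a cell keeping the imprint carries a methylated and an unmethylated copy side by side. DNMT1 copies such marks to the new strand after each replication. The gene encodes a protein of the alpha/beta hydrolase fold, and one of its introns holds the microRNA gene Mir335. The deposited percentages do not separate the parental copies, and a level between the extremes can come from 1 methylated copy in every cell or from a mixture of cells.

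GENCODE lists 11 Mest transcripts, 3 of which start in the only CpG island of the region. The start of ENSMUST00000163949.8, at position 30738050, serves as the reference point for all distances. The island, chr6:30737908-30738499, spans 592 bp with 58 CpGs and 67.2% GC, from position −142 relative to the start site through exon 1 into intron 1. The other transcripts start upstream, the farthest at position −14503, or in the downstream part of the gene. Within the region also lie the antisense gene Gm44296 about 2 to 3 kb upstream of the start site, the pseudogene Gm14528 in the upstream flank, the small RNA genes Gm27522 and Gm27568, and, on the reverse strand, the tail of Copg2, a coat protein gene. No library listed a CpG between 1304 and 4391 bp after the start site, and Mir335, at 3249 bp, falls in that gap.

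The sequences below, from the RefSeq GRCm38 assembly, forward strand, 5′ to 3′, are those on which the comparison turns. Capitals mark the CpGs listed in all 4 libraries. The distal stretch, chr6:30732750-30732881, lies in an intron of the longer Mest transcripts, at positions −5300 to −5169 from the start site, and is shown for its lower level in Tet/Tet ESCs than in the other stretches. The upstream stretch, chr6:30735291-30735512, is intronic for Mest and lies inside an exon of Gm44296. The promoter window, chr6:30737780-30738079, shows how few CpGs before the start site could be compared. The next window, chr6:30738310-30738499, runs from the first coding base of exon 1 to the end of the island in intron 1. The downstream stretch, chr6:30739251-30739337, lies in intron 1. The 3 stretches were chosen after their values were seen.
Mest distal stretch: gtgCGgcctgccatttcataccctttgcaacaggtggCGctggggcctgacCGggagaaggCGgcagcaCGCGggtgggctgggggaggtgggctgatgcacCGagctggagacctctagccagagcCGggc
Mest upstream stretch: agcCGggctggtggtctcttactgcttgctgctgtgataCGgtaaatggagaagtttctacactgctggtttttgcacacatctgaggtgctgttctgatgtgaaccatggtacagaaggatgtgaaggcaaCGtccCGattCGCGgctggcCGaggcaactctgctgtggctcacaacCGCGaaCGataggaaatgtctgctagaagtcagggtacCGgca
Mest promoter: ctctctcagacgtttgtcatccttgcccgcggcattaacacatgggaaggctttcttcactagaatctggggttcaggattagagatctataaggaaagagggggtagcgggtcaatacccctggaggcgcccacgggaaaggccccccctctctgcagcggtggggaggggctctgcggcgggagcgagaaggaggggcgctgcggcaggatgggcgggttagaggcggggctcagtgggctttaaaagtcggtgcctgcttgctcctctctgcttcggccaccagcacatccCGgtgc
Mest exon 1 end and intron 1 start: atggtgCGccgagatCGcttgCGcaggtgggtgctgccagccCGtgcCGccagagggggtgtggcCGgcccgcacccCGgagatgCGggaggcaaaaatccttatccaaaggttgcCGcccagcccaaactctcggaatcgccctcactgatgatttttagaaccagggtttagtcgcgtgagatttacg
Mest downstream stretch: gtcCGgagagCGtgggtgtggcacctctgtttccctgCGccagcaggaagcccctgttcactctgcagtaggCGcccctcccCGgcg

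The Mest promoter island was almost free of methylation in R1 ESCs and partly methylated in the other libraries. Over the 18 sites listed in all 4 libraries R1 ESCs averaged 0.694% ± 2.95 (SD over sites, n = 18 sites) and Tet/Tet ESCs 49.8% ± 34.8. R1 neurons averaged 24.3% ± 20.7 and Tet/Tet neurons 20.3% ± 19.2. Tet/Tet ESCs thus held the highest mean, and the 2 neuron libraries differed by less than the SD over sites of either. The highest mean leans on the sites from 233 to 266 bp after the start site, each at 100% in Tet/Tet ESCs. At the other island sites Tet/Tet ESCs ranged from 0% to 50% and R1 neurons from 0% to 80%. Means without that run were not computed. The SD is over sites of 1 library and says nothing of the spread between cultures. All 18 sites lie from 24 to 376 bp after the start site, 12 in exon 1 and 6 in intron 1. Of the exonic sites 9 lie in the 5′ untranslated region, before the first coding base at 260 bp. The part of the island before the start site had no site listed in all 4 libraries, and the promoter window printed above had 1 of its 17 CpGs so listed.

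In ESCs, 17 of the 18 island sites were higher in Tet/Tet and 1 was equal, with a mean difference of 49.1 points (SD over sites 35.3). Among 10343 promoter islands with values in all 4 libraries, 0.657% were higher by at least 10 points in Tet/Tet ESCs and 0.435% were lower. The median difference of those islands was 0.162 points, and 3 islands, Mest included, were at or above the Mest difference. Since this contrast chose the gene, these ranks are a description. In neurons the island difference was −3.96 points (SD over sites 12.4), with 4 sites higher, 10 lower and 4 equal in Tet/Tet. By comparison 14.2% of promoter islands were lower by at least 10 points in Tet/Tet neurons and 0.0773% were higher, and the median over islands was −0.606 points. The neuronal difference depended on the sites used and ranged from −0.636 points with 1 value per 100 bp to −11.4 points with 1 kb added on either side.

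Along differentiation the island moved in opposite directions in the 2 lines. In R1 the level was 23.6 points higher in neurons than in ESCs, with 14 of 18 sites higher and 1 lower. For promoter islands in general, 14.3% were higher by at least 10 points in R1 neurons than in R1 ESCs and 0.145% were lower. The median over islands was 0.813 points. In Tet/Tet the neurons differed from the ESCs by −29.5 points, with 13 of 18 sites lower and 1 higher. This value leans on the sites from 233 to 266 bp, where Tet/Tet ESCs had 100% and Tet/Tet neurons 0% to 50%. Of all promoter islands 1.07% were lower by at least 10 points in Tet/Tet neurons than in Tet/Tet ESCs and 0.996% were higher, and 46 of 10343, Mest included, fell at or below the Mest difference. Both contrasts start from the ESC levels that chose the gene, so their directions and ranks are a description. Of 1 kb tiles listed in all 4 libraries, 77% were higher by at least 10 points in R1 neurons than in R1 ESCs. In Tet/Tet, 54.6% of these tiles were lower by at least 10 points in neurons. These differentiation contrasts join libraries of different sequencing projects.

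The single sites of the island fell into 3 runs. At the 5 sites from 24 to 73 bp after the start site, R1 ESCs were above 0% at the first site alone. Tet/Tet ESCs ranged there from 14.3% to 50%, and the neurons from 0% to 44.4% in R1 and from 18.2% to 21.4% in Tet/Tet. At the 5 sites from 233 to 266 bp, R1 ESCs had 0% and Tet/Tet ESCs 100% at each site, while both neuron libraries were at 0% at the first 3 of these sites and at 33.3% to 50% at the other two. At the 8 sites from 275 to 376 bp, R1 ESCs were again at 0%, Tet/Tet ESCs ranged from 0% to 50%, R1 neurons from 7.69% to 80% and Tet/Tet neurons from 0% to 50%. Only the first island site was thus above 0% in R1 ESCs. The neighbouring sites at 266 and 275 bp stood at 100% and 0% in Tet/Tet ESCs. Neighbouring sites often carried identical percentages, and 17 of 18 values of R1 ESCs and 6 of 18 of Tet/Tet ESCs were exactly 0% or 100%. Such values occurred at 4 sites in R1 neurons and at 5 in their Tet/Tet counterparts. How many reads stand behind each value is unknown, and no island site lies in an MspI fragment of 40 to 220 bp, the size range taken here for RRBS.

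A methylation level near the middle of the scale is what an intact imprint gives when both copies are read together. In ESCs, 0 of 18 island sites of R1 and 10 of 18 of Tet/Tet lay between 20% and 80%. In neurons, 10 of 18 sites of R1 and 8 of 18 of Tet/Tet did so. With limits of 30% and 70% the shares were 33.3% for Tet/Tet ESCs, 33.3% for R1 neurons and 27.8% for Tet/Tet neurons, and with all sites each library listed the share in Tet/Tet neurons was 26.1%. Over the 539006 sites of all promoter islands, this class held 1.56% of the sites for R1 and 1.66% for Tet/Tet among ESCs, and 5.89% for R1 and 1.86% for Tet/Tet among neurons. The R1 ESC library therefore lacked, at the sites listed, the level for which the gene is known. The mean of the Mest island in Tet/Tet ESCs was above that of 99.6% of promoter islands, and in Tet/Tet neurons above that of 98.8%. In R1 neurons it was above 90.4%.

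**Figure D1:**
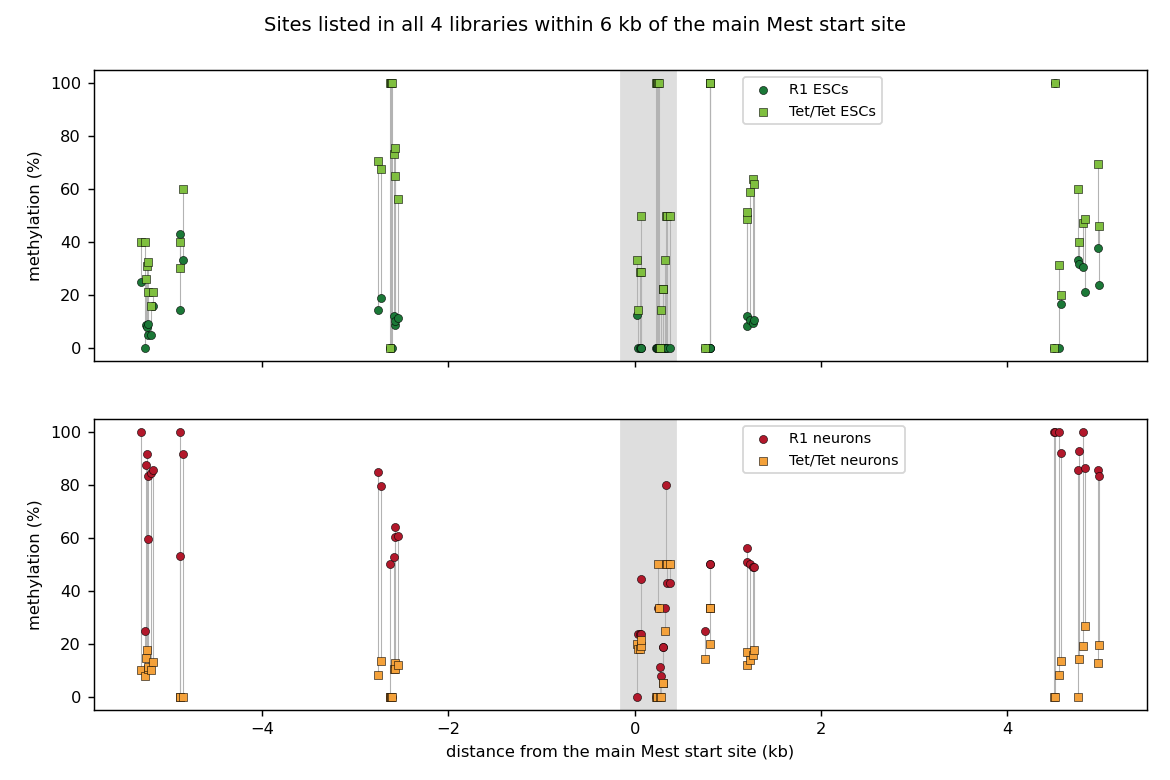
Methylation (%) of the sites listed in all 4 libraries against distance from the main Mest start site (kb), with ESCs above and neurons below, circles for R1, squares for Tet/Tet, grey lines joining the 2 values of a site and a grey band for the CpG island. In ESCs most squares stand far above the circles between the upstream stretch and the downstream stretch, while in neurons the circles stand at or above the squares everywhere except in the island, where both mix.

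The gene outside the island was followed first at the stretches on either side of it. There the ESC libraries differed in the same sense as at the island, while R1 neurons stood well above Tet/Tet neurons. The downstream stretch lies about 1.2 kb after the start site. Its 5 sites ranged from 8.14% to 12.2% in ESCs of R1 and from 48.7% to 63.9% in those of Tet/Tet. In neurons they ranged from 49.0% to 56.3% for R1 and from 12.02% to 17.6% for Tet/Tet. The ranges of R1 and Tet/Tet did not overlap in either cell type. The means were 10.1% ± 1.501 for R1 and 56.9% ± 6.59 for Tet/Tet in ESCs, and 51.1% ± 2.99 for R1 and 15.2% ± 2.31 for Tet/Tet in neurons (SD over sites, n = 5 sites). Of these 5 sites 4 lie in an MspI fragment of 40 to 220 bp, and none was at 0% or 100% in any library. How many other stretches of the genome lacked overlap was not counted. Of 1 kb tiles of the genome, 91% were lower by at least 10 points in Tet/Tet neurons than in R1 neurons. In ESCs, 16.2% were higher by at least 10 points in Tet/Tet. The ESC contrast chose the gene, so its values here are a description. At the 4 sites between the island and this stretch, R1 ESCs were at 0%, Tet/Tet ESCs at 0% once and at 100% at the other sites, R1 neurons at 25% to 50% and Tet/Tet neurons at 14.3% to 33.3%.

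The upstream stretch, at positions −2759 to −2538, gave the largest ESC difference of any 1 kb tile of the region. Over its 11 sites R1 ESCs averaged 6.78% ± 6.97 and Tet/Tet ESCs 73.5% ± 29.4. R1 neurons averaged 41.1% ± 34.1 and Tet/Tet neurons 6.08% ± 5.99. At 5 adjoining sites, at positions −2627 to −2607, each library was almost entirely at 0% or 100%, with Tet/Tet ESCs at 100% at 4 of them and R1 neurons at 0% at 4. Over the other 6 sites, which lack such values, R1 ESCs ranged from 8.47% to 18.6% and Tet/Tet ESCs from 56.3% to 75.6%. R1 neurons ranged from 52.8% to 84.8% and Tet/Tet neurons from 8% to 13.5% at these sites. On those 6 sites the neuronal ranges did not overlap, and the mean of R1 neurons was 67.1% against 11.1% in Tet/Tet neurons. The difference there was −55.9 points, beside a median of −68.6 points over tiles of the genome listed in all 4 libraries. Of tiles listed in both neuron libraries, 91% were lower by at least 10 points in Tet/Tet. The genome share without overlap was not counted.

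Farther from the promoter, R1 neurons reached higher levels than around the start site. In the distal stretch R1 ESCs averaged 9.43% ± 7.71 and Tet/Tet ESCs 28.4% ± 8.96 over 8 sites. R1 neurons averaged 77.2% ± 23.97 and Tet/Tet neurons 11.9% ± 3.14. Here, in contrast to the upstream stretch, the level of Tet/Tet ESCs reached no more than 40% at any site. The 10 sites from 4508 to 4986 bp after the start site, which fall on exons 4 to 6 of the main transcript and the introns between, averaged 29.5% ± 28.0 for R1 and 46.2% ± 27.3 for Tet/Tet among ESCs. R1 neurons averaged 92.7% ± 6.95 there and Tet/Tet neurons 11.4% ± 9.28, with no overlap between the neuron libraries. The median difference between the neuron libraries was −68.6 points over the 80149 tiles of the genome listed in all 4 libraries. Of tiles listed in both neuron libraries, 91% were lower by at least 10 points in Tet/Tet. At the 2 sites at positions −10858 and −10781 the ESC libraries were close, with means of 65.95% for R1 and 64.1% for Tet/Tet, and R1 neurons had 94.8% against 14.4% in Tet/Tet neurons.

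Over the gene body as a whole, the gene without its island, R1 ESCs averaged 18.2% and Tet/Tet ESCs 54.2% over 45 sites. R1 neurons averaged 65.4% and Tet/Tet neurons 10.7%. Tet/Tet ESCs were higher than R1 ESCs at 36 of the 45 sites and lower at 3, with a mean difference of 36.1 points (SD over sites 34.0). Tet/Tet neurons were lower than R1 neurons at 40 sites and higher at 0, with a mean difference of −54.7 points (SD over sites 31.7) and 5 sites equal. Of all CpG sites listed in both ESC libraries, 15.8% were higher by at least 10 points in Tet/Tet and 11% were lower. For the neuron libraries these shares were 1.3% and 70.8%. The ESC contrast chose the gene, so its counts and difference are a description. The 26 gene body sites upstream of the island and the 19 downstream of it gave near values, with ESC differences of 35.4 and 36.9 points and neuronal differences of −54.4 and −55.2 points. The ESC difference was 27.9 points with 1 value per 100 bp, 45.8 points as a difference of medians and 45.05 points on the 23 sites in MspI fragments.

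The flanks had the highest mean of the region in all 4 libraries, narrowly so in Tet/Tet neurons. Over 20 sites, 19 of them upstream, R1 ESCs averaged 57.5% and Tet/Tet ESCs 75.7%. R1 neurons averaged 96.6% and Tet/Tet neurons 20.9%. The ESC difference was 18.1 points (SD over sites 24.8), and Tet/Tet was higher at 16 sites and lower at 1. The neuronal difference was −75.7 points (SD over sites 12.2), and all 20 sites were lower in Tet/Tet neurons. This is near the genome, where the median difference of 1 kb tiles listed in both neuron libraries was −73.8 points. The single comparable site of the downstream flank, 14172 bp after the start site and within Copg2, was at 0% in ESCs of R1 and 66.7% in those of Tet/Tet, and at 100% in neurons of R1 and 0% in those of Tet/Tet.

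**Figure D2:**
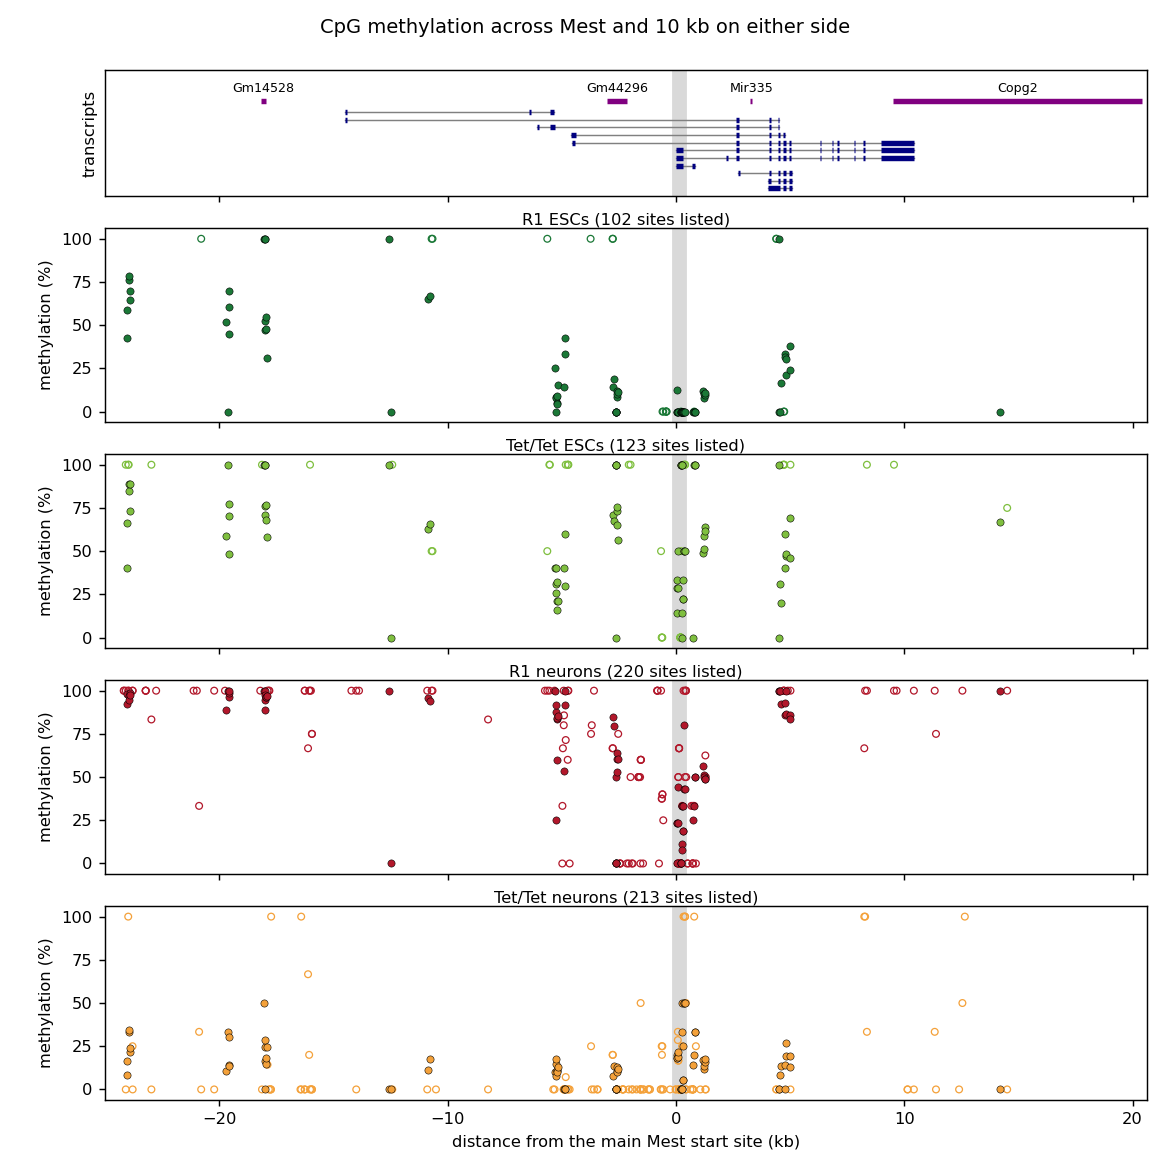
Methylation (%) of every listed CpG against distance from the main Mest start site (kb) in 1 panel per library, with filled points for the 83 sites listed in all 4 libraries, open points for the rest and a grey band for the CpG island. The upper panel draws the 11 Mest transcripts with exons as boxes and 4 further genes in purple, and no points fall on Mir335.

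In 1 kb tiles with at least 5 sites listed in all 4 libraries, 8 tiles of the region could be followed. Tet/Tet minus R1 in ESCs was 8.54, 25.5 and 14.6 points in the 3 tiles of the upstream flank and 17.4 points in the tile around the distal stretch. It was 66.7 points in the tile of the upstream stretch, 49.1 points in the tile of the island and 59.3 points in the next tile, and 16.7 points in the last, about 5 kb after the start site. The 3 consecutive covered tiles around the start site thus had larger ESC differences than the other tiles. That contrast chose the gene, so this is a description. Each of the 3, like some of the other tiles, includes sites at 100% in Tet/Tet ESCs. R1 ESCs held 9.22%, 1.39% and 8.68% of the Tet/Tet ESC level in these 3 tiles and between 46.4% and 88.4% of it in the rest.

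In neurons the difference was smaller in the same 3 tiles. Tet/Tet minus R1 was −73.2, −76.3 and −74.2 points in the upstream flank and −69.8 points around the distal stretch. It was −35.1, −3.96 and −26.3 points in the upstream stretch, the island and the next tile, and −81.2 points in the last. The level in Tet/Tet neurons was 83.7% of that in R1 neurons at the island and 42.8% in the next tile, and 11.0% to 24.0% in the other 6 tiles, the upstream stretch included at 14.8%. R1 neurons had 41.1%, 24.3% and 46.0% in these 3 tiles, against 78.4% to 96.7% in the other tiles. In the upstream stretch this rests in part on the 5 sites that include values of 0% or 100%. Over the other 6 sites R1 neurons had 67.1% and the difference was −55.9 points. Both values were still below the size seen in the tiles farther from the start site.

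**Figure D3:**
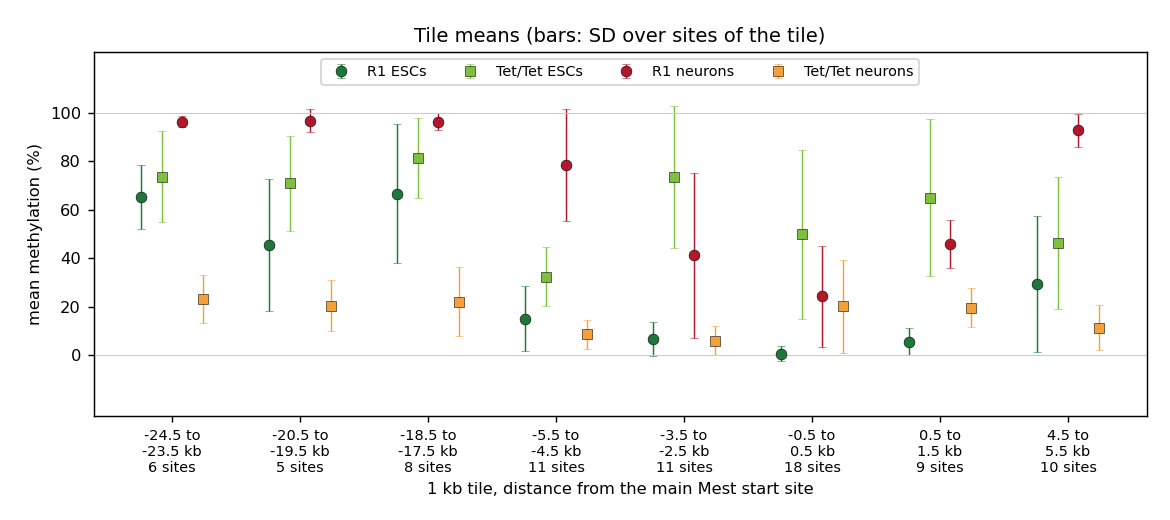
Mean methylation (%) of the 8 tiles of 1 kb with at least 5 sites listed in all 4 libraries, by distance from the main Mest start site, with bars for the SD over the sites of the tile, which pass 0% or 100% in some tiles. In the 3 tiles of the upstream stretch, the island and the next tile, R1 ESCs lie at 0.694% to 6.78% and Tet/Tet ESCs at 49.8% to 73.5%.

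The calls at Mest were read against those of the whole genome. Of tiles listed in both ESC libraries, 16.2% of 103746 were higher by at least 10 points in Tet/Tet and 8.17% were lower, and of the 8 Mest tiles 7 were higher and 0 lower. Of tiles listed in both neuron libraries, 91% of 194466 were lower by at least 10 points in Tet/Tet and 0.106% were higher, and all 11 Mest tiles were lower. By single sites, 62 of 89 Mest sites were higher by at least 10 points in Tet/Tet ESCs and 4 were lower, where the genome gave 15.8% and 11%. The ESC contrast chose the gene, so its tile and site counts are a description and show no enrichment. In neurons 124 of 174 Mest sites were lower and 8 were higher, where the genome gave 70.8% and 1.3%. The share of lower Mest sites in neurons was thus near that of the genome. Along differentiation, all 8 tiles were higher by at least 10 points in R1 neurons than in R1 ESCs, as were 77% of 80149 tiles, where 0.261% were lower. In Tet/Tet all 8 were lower by at least 10 points in neurons, as were 54.6%, where 2.56% were higher.

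**Figure D4:**
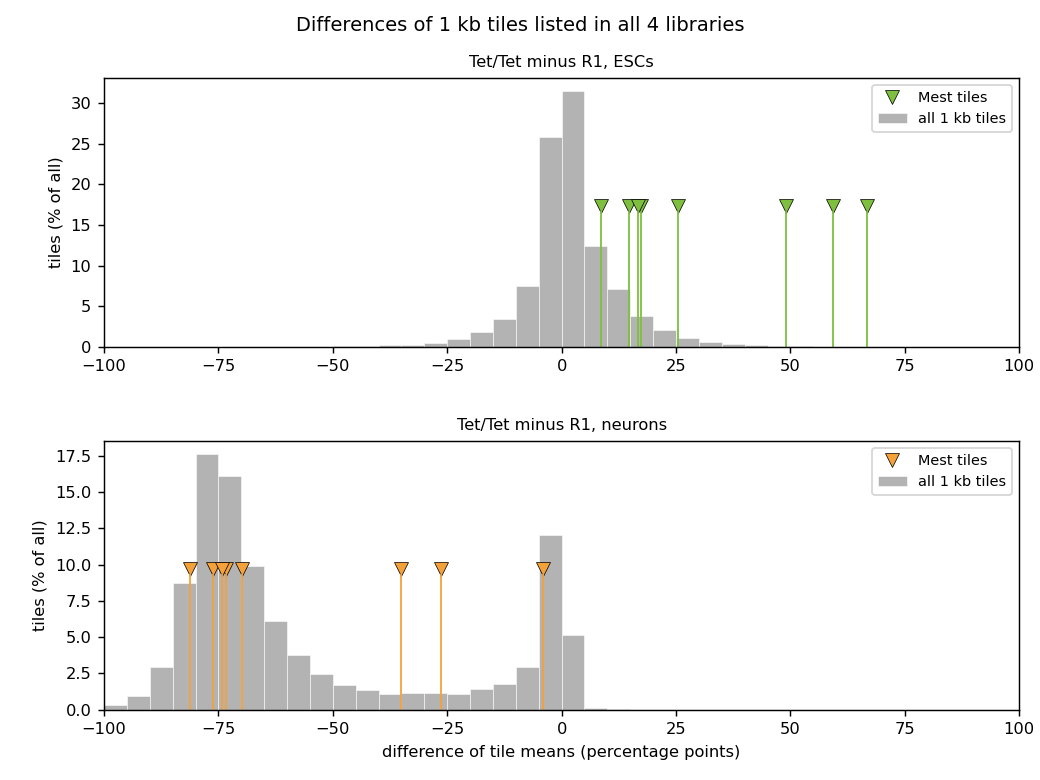
Share of 80149 tiles of 1 kb (%) by the difference Tet/Tet minus R1 (percentage points, bins of 5 points) in ESCs above and in neurons below, with triangles for the 8 Mest tiles, whose height carries no value. In ESCs 3 Mest tiles lie at 49.1 points or more, beyond nearly all tiles, and in neurons 5 lie between −81.2 and −69.8 points, with the bulk of the genome. The ESC contrast chose the gene.

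The levels of R1 ESCs at Mest were also set beside those of other tiles with a like level in Tet/Tet ESCs. Among 32097 tiles of the genome at 40% to 80% in Tet/Tet ESCs, R1 ESCs had a median of 56.0%, and 5% of the tiles were below 30.4%. The Mest tiles of the upstream stretch, the island and the next tile had 6.78%, 0.694% and 5.64% in R1 ESCs. The other 3 Mest tiles in that class had 29.5% about 5 kb after the start site, which is also below 30.4%, and 65.1% and 45.4% in the upstream flank. Among 9352 tiles at 40% to 80% in R1 neurons, Tet/Tet neurons had a median of 10.0%, with a range from the 5th to the 95th percentile of 2.92% to 26.7%. The Mest tiles in that class, at 6.08%, 19.7% and 8.62%, fell inside it. These classes were chosen after the values were seen. The ESC class uses the contrast that chose the gene, so low R1 ESC levels at Mest follow from that choice and are a description.

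Other genes with a maternally methylated promoter island were taken from a fixed list of 11 genes, among them Peg3, a zinc finger gene, Peg10, a gene derived from a retrotransposon that the placenta needs, Nnat, a membrane proteolipid gene of neurons, Zrsr1, a splicing factor gene, Plagl1, a zinc finger transcription factor gene, and the noncoding RNA genes Airn, Peg13 and Kcnq1ot1, the first and last of which silence their neighbours. Snrpn had no island by the rule used, which left 10 genes in ESCs. Tet/Tet ESCs were higher by at least 10 points at 4 of the 10 and lower at 2, where all promoter islands gave 0.657% and 0.435%, and the median difference was 3.23 points. Peg13 was higher by 35.8 points, Kcnq1ot1 by 15.7, Zrsr1 by 15.0 and Plagl1 by 11.3, whereas the difference was −13.2 points at Peg3 and −12.6 points at Airn. The Mest difference of 49.1 points was above each of them, and its R1 ESC level of 0.694% was below each, the lowest being 2.83% at Peg10. Mest was chosen by this contrast and the listed genes were not, so both ranks are a description.

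In neurons 8 of these genes had values in Tet/Tet. Of these 6 were lower by at least 10 points and 0 were higher, where all promoter islands gave 14.2% and 0.0773%, and the median difference was −34.7 points. The exceptions were Peg10 at −7.81 points and Zrsr1 at −3.76 points. Mest, at −3.96 points, was close to Zrsr1. From R1 ESCs to R1 neurons 9 of the 10 genes were higher by at least 10 points, as were 14.3% of all promoter islands. The median over the 10 was 27.4 points, beside 23.6 points at Mest. In Tet/Tet neurons the levels of the 8 genes ranged from 0.470% to 23.1% with a median of 3.10%, and Mest, at 20.3%, was above all but Peg13.

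**Figure D5:**
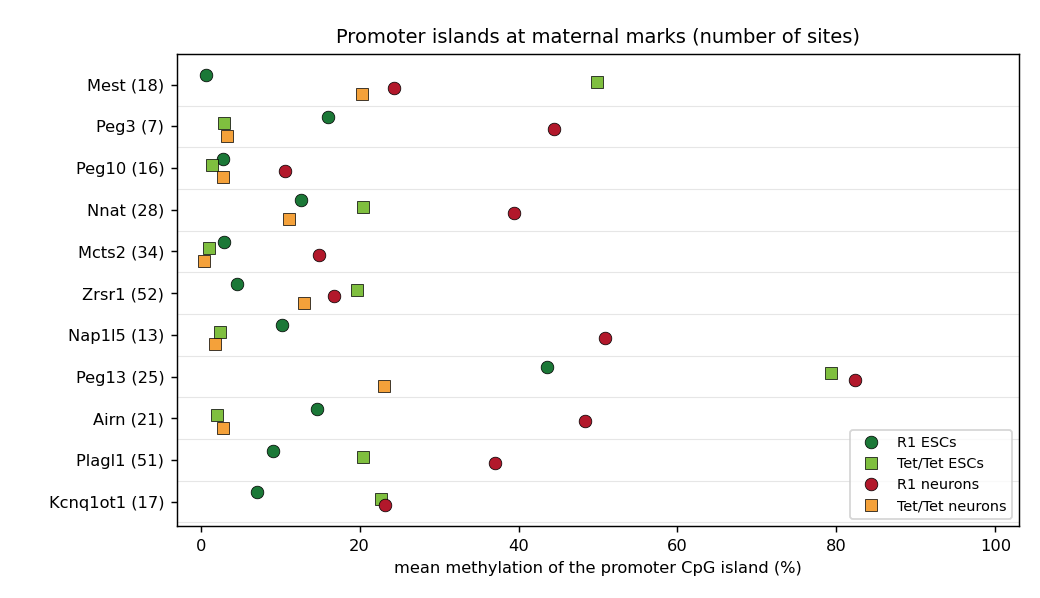
Mean methylation (%) of the promoter CpG island of Mest and of 10 genes with a maternal mark in the 4 libraries, with the number of sites in parentheses, circles for R1 and squares for Tet/Tet. Plagl1 and Kcnq1ot1 have no point for Tet/Tet neurons, where those parts of chromosomes 10 and 7 were not analysed.

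The promoter islands whose 4 levels were most like those of Mest were ranked by Euclidean distance over the 4 libraries among 8289 islands with at least 20 sites. The Mest island itself has 18 such sites, fewer than this limit. The nearest was that of Zrsr1 and Commd1, at 32.2 points, with 4.63% for R1 and 19.6% for Tet/Tet in ESCs, and 16.8% for R1 and 13.05% for Tet/Tet in neurons. Next came the islands of Atf7ip and Gm44140 at 35.6 points, Blcap and Nnat at 36.4 points, Gnas at 37.1 points and Tfap2b at 38.6 points. The median distance over all islands was 55.3 points. None of the 5 exceeded 22.8% in Tet/Tet ESCs, where Mest was at 49.8%.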

How the data were processed

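RRBS was made of 4 libraries, 1 per condition. The authors trimmed reads with Trim Galore 0.6.4, checked them with FastQC 0.11.8, mapped them to mm10 with Bismark 0.19.0 and called CpGs with MethylDackel 0.3.0, by the paper and the submitters' processing notes. The authors deposited 1 value per CpG, the percent of reads with an unconverted cytosine, without read totals, so the depth per site is unknown, every site had equal weight and no interval was given. Values were not normalized between libraries.

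Computation used Python 3.11.15, numpy 2.4.6, pandas 2.3.3, numba 0.67.0 and matplotlib 3.10.9, with genes of GENCODE release M21 on GRCm38. CpG islands were segments scored 17 per CpG and −1 per other base, longer than 200 bp, with a GC content of 50% or more and a CpG ratio, observed to expected, above 0.6, and a promoter island was one within 1 kb of a start site. Tiles of 1 kb needed 5 sites. A site, tile or island counted as differing at 10 points or more. The steps were tested on simulated data. The alternatives concerned the sites used, thinning to 1 value per 100 bp, medians, thresholds, the island definition and MspI fragments of 40 to 220 bp. Genes named were the members, 11 genes with maternal marks and the 5 islands nearest in level. The members and lists were chosen with earlier results of these data known. For Tet/Tet neurons chromosomes 8 and 9 and parts of 7 and 10 were not analysed here.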

Additional observations from a re-analysis of the deposited data

Results flagged for a closer look

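Tet/Tet was above R1 in ESCs and below it in neurons at each part of the Mest region, which singled out 3 results. The neuronal difference minus the ESC difference was −53.1 points at the promoter island, −90.8 points in the gene body and −93.8 points in the flanks. The ESC part of each value chose the gene, so the values are a description. Over 80149 tiles of the genome, the mean of Tet/Tet minus R1 was 1.95 points in ESCs and −53.8 points in neurons. A large negative neuronal part is thus common in the genome. With 1 library per condition the differences between cell types at Mest were not tested, and the project, which changes with the cell type, cannot be told apart from it. At the Mest island the value comes almost wholly from ESCs, since the neuronal difference there was −3.96 points, whereas in the flanks it comes mainly from neurons.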

How the results depend on the processing

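Over the values compared, 55 alternatives moved a difference by less than 5 points or a count by less than 1.5 times, 29 moved more and none reversed a direction. Some of the 55 carry no information. The stricter island was the same interval, and the island by windows of 200 bp held the same comparable sites, so both repeated the main values. Counts of 0 that stayed at 0 are also among the 55. The promoter island difference in ESCs, 49.1 points, was 42.3 with each library's own sites and 41.7 as a difference of medians. In neurons, −3.96 points became −10.6 with the sites listed in both neuron libraries, −11.4 with each library's own sites and −11.4 with 1 kb added on either side. The rise in R1, 23.6 points, was 28.9 with own sites and 29.2 with 1 kb added. In Tet/Tet, −29.5 points became −20.0 with the sites of the pair, −23.1 with medians and −34.8 with 1 kb added. The gene body difference in ESCs, 36.1 points, was 27.9 with 1 value per 100 bp, 45.8 with medians and 45.05 in MspI fragments. In neurons, −54.7 points became −48.5 with the sites of the pair, −62.3 with 1 value per 100 bp, −68.4 with medians, −48.9 in MspI fragments and −60.2 without sites at 0% or 100%. With sites listed in all 4 libraries, 1 site was lower in ESCs, and in neurons 2 were higher and 65 lower. With at least 10 sites per tile, 4 tiles were higher in ESCs and 7 lower in neurons. Island sites between 30% and 70% made up 33.3% for Tet/Tet ESCs, 33.3% for R1 neurons and 27.8% for Tet/Tet neurons, and sites between 20% and 80% with own sites 37.9%, 41.9% and 26.1%. The alternatives with 1 kb added, with islands found by windows of 200 bp and without sites at 0% or 100% were chosen after seeing the data. The alternative of MspI fragments gave no value for the island, which has no comparable site in such a fragment. No paired analysis was possible because each condition had 1 library. Read depth limits every site value and is not known.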

Other observations

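The order of levels in which R1 ESCs are below 20%, Tet/Tet ESCs and R1 neurons between 40% and 80%, and Tet/Tet neurons below 25% was seen at 62 of 80149 tiles of 1 kb, or 0.0774%. Of the 8 Mest tiles 2 had it, those of the upstream stretch and of the stretch just after the island. The limits were set after the Mest values were seen, and the ESC levels among them chose the gene.

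The sequence TGCCGC, searched on both strands, is the core of the site of ZFP57, a zinc finger protein that binds imprinted regions when the CpG in this sequence is methylated. It occurred 17 times in the Mest region, 7 of them in the island, while 38.0% of all 23752 islands held at least 1 in a window of 592 bp. How many islands held 7 or more was not counted, so this share does not rank the Mest island. Of the 7 matches in the island 4 had a CpG listed in all 4 libraries, and each of the 4 was at 0% in R1 ESCs. In Tet/Tet ESCs these CpGs had 28.6%, 100%, 22.2% and 50.0%, in R1 neurons 23.5%, 0%, 18.8% and 42.9%, and in Tet/Tet neurons 18.2%, 0%, 5.26% and 50.0%. A match is a description of the letters and not a measured binding site.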
